A study of Mus musculus with 6 samples.

Results

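The 34 genes described here code for glucose and lactate transporters, the enzymes of glycolysis, the enzymes that decide the fate of pyruvate, and targets of the hypoxia response. They were chosen by name, 34 of the 24467 genes counted in the series. The rule for the choice used no measured value, but earlier results of these data were known when the genes were listed. All 34 passed the filter on low counts, which left 14771 genes to test, and 6 of them lie on mouse chromosome 6. The cells were mouse embryonic stem cells. The control cells had floxed alleles of both Hp1α (Cbx5) and Hp1β (Cbx1). They were titled Hp1α/β F/F, with no clone named, and given the genotype WT. The control was compared with clones 1 and 2 of the Hp1α/β double knockout (DKO), by label lacking both genes. Each of the 3 groups had 2 RNA sequencing libraries. HP1 proteins bind methylated histone H3 in heterochromatin. How the alleles were deleted is not given in the sources used here, and with 1 control group the genotype and the clone cannot be told apart. Every culture received the same medium: knockout serum replacement, leukaemia inhibitory factor, 4.5 g/L glucose, 1 mM pyruvate, 2 mM glutamine, 3 µM of the GSK3 inhibitor CHIR99021 and 0.8 µM of the MEK inhibitor PD184352. No other treatment was given, and an oxygen level is not stated beside the culture conditions.

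Glycolysis splits glucose into pyruvate and yields ATP without oxygen. Glucose enters through transporters of the SLC2A family, hexokinase traps it as a phosphate, and later steps of the chain recover ATP and NADH. Lactate dehydrogenase turns pyruvate into lactate, which leaves the cell through SLC16A transporters, whereas pyruvate dehydrogenase sends pyruvate into mitochondria unless its kinases (PDK) block it. When oxygen is low, the prolyl hydroxylases of the EGLN family no longer mark the HIF alpha subunits for destruction through VHL, and HIF bound to ARNT raises many of these genes through sites with the core ACGTG or GCGTG. Naive mouse embryonic stem cells use both glycolysis and respiration.

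The libraries held 24628872 to 34641560 counted reads. Cbx5 fell from a mean of 811 to 198 CPM (read counts scaled to library depth) and Cbx1 from 225 to 45.7 CPM. Both targeted genes were thus lower in the DKO libraries, with 0.244 and 0.203 of the control mean remaining. Counts per gene cannot show the deletion itself. The 10 pluripotency markers, Pou5f1, Sox2 and Nanog among them, summed to 4962 to 5332 CPM per library. Of 14 fibroblast or feeder markers, 6 (Col1a2, Col3a1, Postn, Lum, Dcn and S100a4) stayed at or below 0.262 CPM in every library, while the sum of the list, carried by Fn1 and Vim, was 1330 to 1362 CPM in the control and 1361 to 1591 in the DKO libraries. By the test described below, 1 of the 8 tested markers was higher (Fbln2) and 1 lower (Acta2) in DKO against control. Over all tested genes, 5.06% were higher and 3.62% lower. In clone 1, 3 markers were higher and 2 lower (8.79% and 6.47% of all tested genes), and in clone 2, 1 and 2 (7.89% and 7.08%). In clone 2 against clone 1, 0 were higher and 4 lower (2.53% and 3.77%). These shares of all tested genes also apply to the other marker lists. Of the 10 pluripotency markers, Nanog, on chromosome 6, was higher and Tdgf1 lower in DKO against control. For clone 1, 2 of them were higher and 1 lower, and for clone 2, 1 and 0. Between the clones 0 of the 10 were called. Primitive endoderm markers summed to 384 to 440 CPM with Afp at 0, neuroectoderm markers to 81.7 to 112 CPM (82.0 CPM or less in clone 2), and mesoderm markers to 12.9 to 25.0 CPM (above 23 only in clone 2) with Mesp1 at 0. Lower in DKO against control were 1 of 9 tested primitive endoderm, 1 of 7 neuroectoderm and 0 of 7 mesoderm markers, and 0 were higher. For clone 1 the lower counts were 1, 1 and 0. For clone 2 they were 2, 4 (Map2, Neurod1, Olig2 and Sox1) and 0. The mesoderm marker Eomes was higher in both clones. Between the clones, 2 neuroectoderm markers were lower in clone 2 and Eomes higher. The part of all these markers in the changes below was not tested. In bulk RNA, a change in the share of cells of a kind and a change in RNA per cell cannot be told apart. The values below are CPM scaled by the TMM method, and p-values are from the edgeR quasi-likelihood test, two-sided, adjusted by Benjamini and Hochberg over all 14771 genes with a threshold of 0.05. Whether both libraries of a clone were grown separately is not stated, so these p-values measure only the spread between these libraries, which may be technical.

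Promoter sequences were read for 32 of the 34 genes from RefSeq windows on GRCm38.p6, 250 bases before and 50 after a gene's first listed start, and Slc2a3 and Ndrg1 had none there. The 7 stretches below are the 250 bases before the start of genes that were higher in DKO libraries (Slc2a1, Hk2, Gapdh, Ldhb) or differed between the DKO clones (Pgk1, Slc16a3, Bnip3). They were picked after these values were seen. The stretches of Gapdh and Slc16a3, taken before the first start listed for them, lie inside the annotated span of the gene. Each is 5′ to 3′ on the gene's strand, and capitals mark ACGTG or GCGTG, or their reverse complements CACGT and CACGC.
Slc2a1, chr4:119108495-119108744, plus strand: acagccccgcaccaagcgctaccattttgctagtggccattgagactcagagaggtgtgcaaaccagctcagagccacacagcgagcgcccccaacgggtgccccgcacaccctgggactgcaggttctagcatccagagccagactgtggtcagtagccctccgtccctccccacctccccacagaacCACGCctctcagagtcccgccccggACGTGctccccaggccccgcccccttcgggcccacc
Hk2, chr6:82774455-82774704, minus strand: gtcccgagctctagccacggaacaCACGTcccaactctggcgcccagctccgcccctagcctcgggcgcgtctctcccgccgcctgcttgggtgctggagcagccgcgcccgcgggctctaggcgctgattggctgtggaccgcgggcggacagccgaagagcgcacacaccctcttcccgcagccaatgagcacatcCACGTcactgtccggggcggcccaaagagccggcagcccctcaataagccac
Gapdh, chr6:125165774-125166023, minus strand: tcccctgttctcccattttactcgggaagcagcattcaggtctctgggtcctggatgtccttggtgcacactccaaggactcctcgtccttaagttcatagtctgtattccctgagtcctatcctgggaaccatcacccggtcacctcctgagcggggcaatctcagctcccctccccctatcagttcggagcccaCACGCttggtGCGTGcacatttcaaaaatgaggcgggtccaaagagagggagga
Ldhb, chr6:142507958-142508207, minus strand: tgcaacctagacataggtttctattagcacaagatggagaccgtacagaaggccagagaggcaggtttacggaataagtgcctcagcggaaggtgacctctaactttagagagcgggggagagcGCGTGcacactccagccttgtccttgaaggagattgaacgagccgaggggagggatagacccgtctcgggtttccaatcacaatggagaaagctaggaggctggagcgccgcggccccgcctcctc
Pgk1, chrX:106186850-106187099, plus strand: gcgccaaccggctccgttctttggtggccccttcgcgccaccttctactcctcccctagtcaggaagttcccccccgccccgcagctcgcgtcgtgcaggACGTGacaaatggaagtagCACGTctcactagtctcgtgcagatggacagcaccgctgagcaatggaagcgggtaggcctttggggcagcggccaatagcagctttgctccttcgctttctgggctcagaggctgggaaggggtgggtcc
Slc16a3, chr11:120948817-120949066, plus strand: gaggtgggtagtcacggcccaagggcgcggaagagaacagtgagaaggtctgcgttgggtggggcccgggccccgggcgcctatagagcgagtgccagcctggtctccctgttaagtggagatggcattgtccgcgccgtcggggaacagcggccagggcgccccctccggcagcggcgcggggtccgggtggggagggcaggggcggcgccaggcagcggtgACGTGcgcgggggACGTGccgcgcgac
Bnip3, chr7:138909507-138909756, minus strand: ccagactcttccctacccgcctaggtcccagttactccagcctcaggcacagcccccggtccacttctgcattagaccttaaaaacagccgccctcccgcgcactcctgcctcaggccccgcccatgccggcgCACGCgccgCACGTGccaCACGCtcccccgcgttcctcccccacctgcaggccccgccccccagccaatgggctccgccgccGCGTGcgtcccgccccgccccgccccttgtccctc

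ACGTG on either strand was present in the 300-base windows of 19 of 32 members (59.4%), against 19.7% of the windows of all 27025 genes and 25.3% of those of tested genes. GCGTG was present in 59.4% of the members' windows, against 32.5% and 50.2%. The members were listed as glycolysis genes and hypoxia targets, many of which HIF raises through such cores. High shares may thus come with the choice of the list, and they say nothing about these libraries. In the stretches shown, Hk2 and Pgk1 each hold 2 ACGTG cores, on the same or the opposite strand, and Slc16a3 holds 2 within its last 30 bases. In Bnip3, a palindrome gives an ACGTG match on each strand. The stretches of Gapdh and Ldhb hold GCGTG alone, that of Gapdh on both strands. A match is a description of the letters and not a measured site, and the genes with a match include members that did not pass any test.

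The summed level of the 34 members was higher in the DKO clones, a sum that rests mostly on abundant genes such as Pkm, Gapdh, Slc2a3 and Eno1. In clone 1 the log2 change was above 0 for 17 members and below 0 for 17. Their summed level was 6749 and 6747 CPM in the control libraries, 7972 and 7839 CPM in clone 1, and 9119 and 8626 CPM in clone 2, so the groups did not overlap. The 6 genes on chromosome 6 summed to 1697 and 1673 CPM in the control, 2746 and 2788 in clone 1, and 3060 and 3076 in clone 2. The other 28 summed to 5053 and 5075 CPM in the control and to 5226 and 5051 in clone 1, which overlap, and to 6059 and 5551 in clone 2, above both. Clone 1 thus differed from the control in the summed level of the chromosome 6 genes, and clone 2 in both sums.

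In DKO against control, 5 of the 34 members rose and 0 fell: Slc2a3, Ldhb, Gapdh, Hk2 and Slc2a1. Across all tested genes, 5.06% were called higher and 3.62% lower. The median log2 change of the members was 0.10, against 0.00038 for all tested genes. The 5 calls are not spread evenly over the genome: 4 of the 6 members on chromosome 6 rose, where 49.1% of all tested genes of that chromosome were called higher, and 1 of the 28 elsewhere (Slc2a1), where 2.84% were. The share of the 28 is thus close to its background. Counted without a test, all 4 DKO libraries lay above both control libraries for 12 members (16.9% of all tested genes did so), below both for 2, Vegfa and Egln1 (again 16.9%), and overlapped them for 20.

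**Figure D1:**
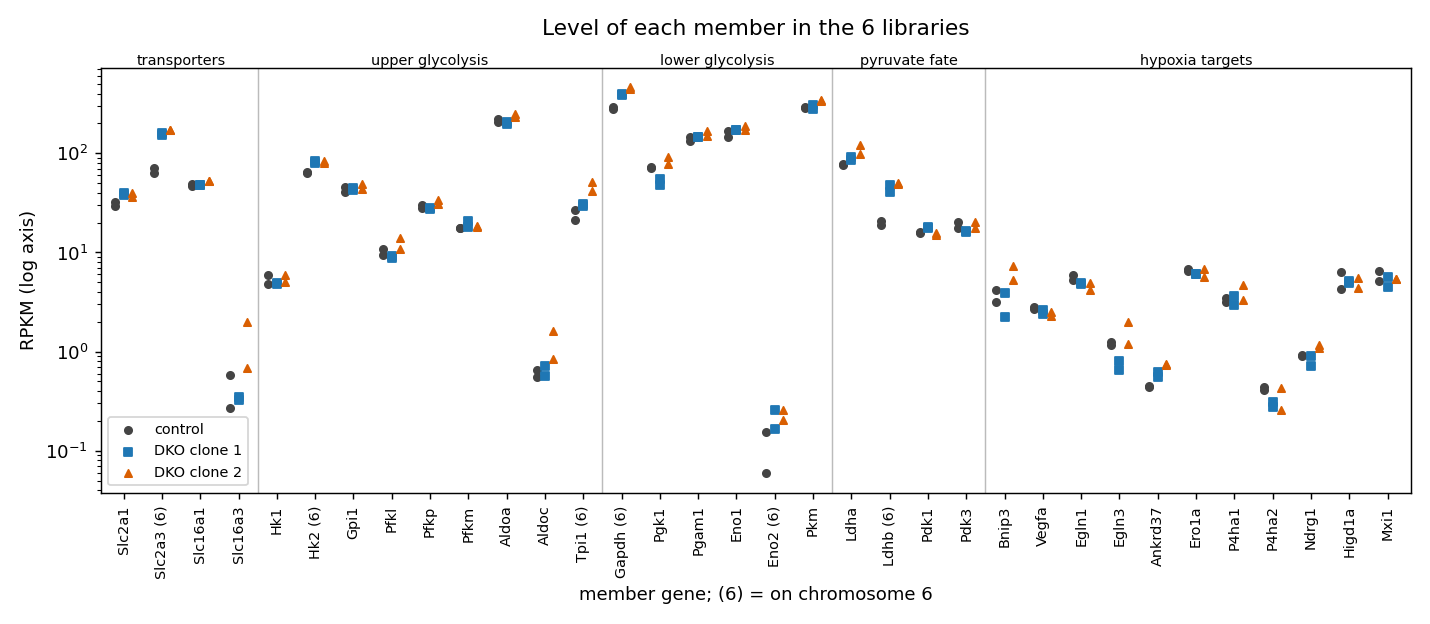
Level of the 34 members in each of the 6 libraries, in length-scaled CPM (RPKM, the CPM per kilobase of gene) on a log axis, by role. Circles are control, squares DKO clone 1 and triangles DKO clone 2. The members span more than 3 orders of magnitude, from Eno2 (mean 0.107 RPKM in the control) to Pkm (290 RPKM).

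Among the 4 transporters, the neuronal-type glucose carrier Slc2a3 (GLUT3, Entrez 20527, chr6:122727809-122802363) changed most in DKO against control. It was at 514 and 458 CPM in the control, 1117 and 1161 in clone 1, and 1241 and 1234 in clone 2. All 4 DKO libraries were at more than double the level of either control library. The log2 change in DKO was 1.29 (SE 0.0793, adjusted p 3.7e-05), and it was 1.23 in clone 1 and 1.35 in clone 2. Slc2a1 (GLUT1, Entrez 20525, chr4:119108745-119137330), the widespread basal glucose carrier, was at 103 and 113 CPM in the control, 140 and 133 in clone 1, and 138 and 127 in clone 2. The groups did not overlap, and the log2 change was 0.32 (SE 0.0728, adjusted p 0.0231). The call for Slc2a1 ended without control replicate 1 (adjusted p 0.236), without control replicate 2 (0.0753) and without clone 2 replicate 1 (0.0531). On a per-length scale, Slc2a3 made up 70.8 and 66.2% of the summed RPKM of both glucose carriers in the control, 79.4 and 80.9% in clone 1, and 81.3 and 82.5% in clone 2. Their summed level went from a mean of 97.8 RPKM in the control to 202 RPKM in the DKO libraries.

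Of the lactate carriers, Slc16a1 (MCT1) stayed between 205 and 234 CPM in all 6 libraries and passed in no contrast as measured. After the median change of each chromosome was subtracted (below), Slc16a1, on chromosome 3, was called lower in clone 1 than in the control (-0.28, adjusted p 0.0162) and higher in clone 2 than in clone 1 (0.33, 0.0119). Slc16a3 (MCT4, Entrez 80879, chr11:120948484-120959000), the carrier typical of cells that export lactate, was at 3.09 and 1.42 CPM in the control, 1.72 and 1.87 in clone 1, and 10.5 and 3.64 in clone 2. It was highest in both clone 2 libraries, which differed from each other by more than the other groups did in CPM. Slc16a3 rose in clone 2 against control by 1.63 on the log2 scale (SE 0.413, adjusted p 0.0170), but not without clone 2 replicate 1 (0.68, adjusted p 0.319) or control replicate 2 (1.19, adjusted p 0.153). Even in clone 2 replicate 1 it made up 3.59% of the summed RPKM of both lactate carriers.

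**Figure D2:**
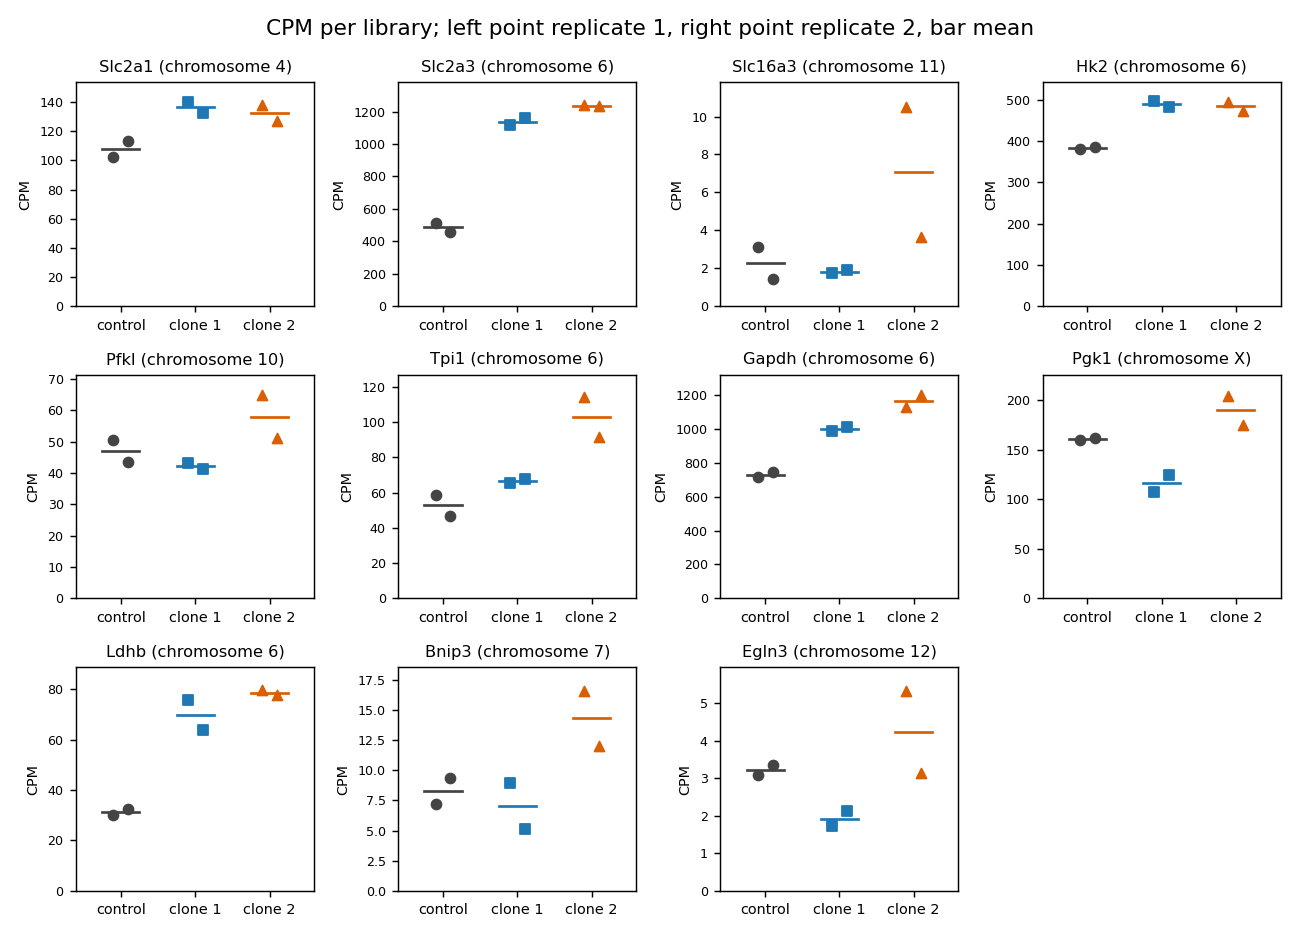
CPM in each library for the 11 members called in DKO against control or between the DKO clones, each on its own axis from 0. In a panel the left point of a group is replicate 1, the right point replicate 2 and the bar their mean. Slc2a3, Ldhb, Gapdh, Hk2 and Slc2a1 are higher in all 4 DKO libraries, while Pgk1, Tpi1, Slc16a3, Bnip3, Egln3 and Pfkl differ between clones 1 and 2.

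Of the 9 members in the upper part of glycolysis, which spends ATP to make triose phosphates, 1 rose in DKO against control. This was Hk2 (Entrez 15277, chr6:82725025-82774454), the inducible hexokinase that binds mitochondria. Hk2 was at 380.2 and 386 CPM in the control, 497 and 482 in clone 1, and 496 and 473 in clone 2, with no overlap. Its log2 change was 0.35 (SE 0.0596, adjusted p 0.0056), and the call ended without control replicate 1 (adjusted p 0.0891) or control replicate 2 (0.0643). Hk2 was the main hexokinase RNA, at 91.6 to 94.5% of the summed RPKM of Hk1 and Hk2 in every library, and Hk1 stayed at 40.8 to 50.9 CPM.

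Tpi1 (Entrez 21991, chr6:124810586-124814158), which interconverts the triose phosphates, was at 58.6 and 46.8 CPM in the control, 65.3 and 67.7 in clone 1, and 114 and 91.6 in clone 2. The DKO libraries lay above the control, and those of clone 2 above those of clone 1. The change over both clones did not pass (log2 0.68, adjusted p 0.0701), though it did without clone 1 replicate 1 (0.0307) or clone 1 replicate 2 (0.0443) and with no filter on low counts (0.0152). In clone 2 Tpi1 rose by 0.96 (SE 0.114, adjusted p 9.3e-05). Aldoc, a brain-type aldolase (Entrez 11676, chr11:78323073-78327781), was at 1.80 and 2.11 CPM in the control, 2.33 and 1.83 in clone 1, and 5.30 and 2.77 in clone 2. Only the clone 2 change passed (log2 1.04, SE 0.295, adjusted p 0.0309), and not without clone 2 replicate 1 (0.373), control replicate 1 (0.155) or control replicate 2 (0.0928). Aldoc was at most 0.646% of the summed RPKM of Aldoa and Aldoc in any library.

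Among the phosphofructokinases, which commit sugar to glycolysis, Pfkl (liver type, Entrez 18641, chr10:77986947-78009807) was at 50.4 and 43.6 CPM in the control, 43.3 and 41.4 in clone 1, and 64.8 and 51.1 in clone 2. Clone 2 lay above both other groups, and Pfkl passed only between the clones. Pfkp and Pfkm passed in no contrast, with log2 changes in DKO of 0.05 and 0.10. Pfkp held 47.8 to 51.5% of the summed RPKM of the 3 isoforms in every library. The isomerase Gpi1 (log2 0.07) and the main aldolase Aldoa (0.03) passed in no contrast with edgeR. Between the clones, Aldoa had a log2 difference of 0.25 (adjusted p 0.0664), and it was called with DESeq2 (0.0228) and limma-voom (0.0469). Of the 9 members of the upper part, 1 was called in DKO, 1 in clone 1 and 3 in clone 2, where 5.06%, 8.79% and 7.89% of all tested genes were called higher, so that 1 of 9 is near the background.

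The 6 members of the lower part of glycolysis, where ATP and NADH are made, included 1 that rose in DKO and 0 that fell. Over all tested genes, 5.06% rose and 3.62% fell. The risen member, Gapdh, lies on chromosome 6, where 49.1% of tested genes were called higher. Gapdh (Entrez 14433, chr6:125161852-125166467), which oxidises triose phosphate and is often used as a reference gene, was at 714 and 749 CPM in the control, 991 and 1013 in clone 1, and 1128 and 1198 in clone 2. The 3 groups did not overlap. The log2 change was 0.57 (SE 0.0873, adjusted p 0.0032), 0.45 in clone 1 and 0.67 in clone 2, and the call in DKO ended without control replicate 1 (adjusted p 0.0698). The enolase Eno1 was at 789 to 1003 CPM, the mutase Pgam1 at 244 to 307 and the pyruvate kinase Pkm at 1412 to 1742 CPM over the 6 libraries, and none of these passed in any of the 4 edgeR contrasts. Pkm was higher in clone 2 than in the control with DESeq2 (log2 0.24, adjusted p 0.0110) and limma-voom (0.0207), with library size scaling (0.0401) and after centring (0.0427), against 0.0512 in edgeR. Between the clones, DESeq2 called Pkm (0.0473) and Gapdh (0.0342). The neuronal enolase Eno2, also on chromosome 6, was at 0.728 and 0.279 CPM in the control and 0.790 to 1.22 in the DKO libraries, and its log2 change of 1.04 had an SE of 0.428 (adjusted p 0.176).

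Pgk1 (Entrez 18655, chrX:106187100-106203699), the kinase that makes the first ATP of this part, moved apart in the clones. It was at 160.1 and 162 CPM in the control, 108 and 125 in clone 1, and 204 and 175 in clone 2. Clone 1 was below and clone 2 above both control libraries. Pgk1 fell in clone 1 (log2 -0.47, SE 0.0872, adjusted p 0.0026), the change in clone 2 did not pass (0.24, adjusted p 0.0865), and the mean over both clones was near the control (-0.07).

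Of the 4 enzymes that set the fate of pyruvate, 1 (Ldhb) rose in DKO and 0 fell, against 5.06% and 3.62% of all tested genes. On chromosome 6, where Ldhb lies, 49.1% of tested genes were called higher. Ldhb (heart-type lactate dehydrogenase, Entrez 16832, chr6:142490249-142507957) was at 30.04 and 32.6 CPM in the control, 75.6 and 63.9 in clone 1, and 79.6 and 77.7 in clone 2. All 4 DKO libraries were near or above double the control level. The log2 change was 1.24 (SE 0.104, adjusted p 3.9e-04), 1.15 in clone 1 and 1.33 in clone 2. Ldha (muscle-type, Entrez 16828, chr7:46842274-46855627), the isoform that HIF is known to raise, was at 256 and 249.98 CPM in the control, 306 and 284 in clone 1, and 400.1 and 326 in clone 2. It lay above the control in all 4 DKO libraries, passed in clone 2 (log2 0.52, SE 0.0876, adjusted p 0.0012), and did not pass over both clones (0.38, adjusted p 0.0740) in the edgeR fit to all libraries. Ldha did pass over both clones without clone 1 replicate 2 (0.0346), with DESeq2 (0.0185) and with no filter on low counts (0.0286). In RPKM, Ldhb made up 19.9 and 21.6% of both isoforms in the control, 34.2 and 32.2% in clone 1, and 29.6 and 33.5% in clone 2. The PDH kinases Pdk1 and Pdk3 passed in no contrast, and Pdk1 was the 1 member for which both clone 2 libraries lay below both of clone 1.

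None of the 11 hypoxia targets passed in DKO against control, where 1 had an unadjusted p under 0.05 (Egln1), and both DESeq2 and limma-voom on the same counts also called 0. Over all tested genes 5.06% were called higher and 3.62% lower, so 0 of 11 is near the background. The median log2 change of the 11 targets was -0.08, with 4 above and 7 below 0. Bnip3, a mitophagy receptor (Entrez 12176, chr7:138890836-138909506), was at 7.19 and 9.39 CPM in the control, 8.90 and 5.10 in clone 1, and 16.6 and 12.0 in clone 2. Both clone 2 libraries were above all others, and Bnip3 rose in clone 2 (log2 0.79, SE 0.226, adjusted p 0.0331). That call ended without clone 2 replicate 1 (adjusted p 0.262), control replicate 1 (0.215) or control replicate 2 (0.0574). Egln3, a prolyl hydroxylase induced by HIF as a brake (Entrez 112407, chr12:54178981-54203874), was at 3.09 and 3.35 CPM in the control, 1.72 and 2.12 in clone 1, and 5.34 and 3.15 in clone 2. It was low in clone 1, and clone 2 overlapped the control.

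The other 9 targets passed in no contrast. Egln1, the main oxygen sensor of the family, was at 18.8 and 21.4 CPM in the control and 15.0 to 17.7 in the DKO libraries, and Vegfa, the angiogenic growth factor, at 12.1 and 11.6 against 9.72 to 11.1 CPM. Both were below the control in all 4 DKO libraries without passing (log2 -0.25 and -0.17). Ankrd37 was at 0.699 and 0.681 CPM in the control and 0.862 to 1.16 in the DKO libraries (log2 0.57, adjusted p 0.313). The collagen hydroxylases P4ha1 and P4ha2 (log2 0.13 and -0.42), the oxidase Ero1a (-0.12), Ndrg1 (0.08), Higd1a (-0.08) and Mxi1 (-0.16) overlapped the control.

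**Figure D3:**
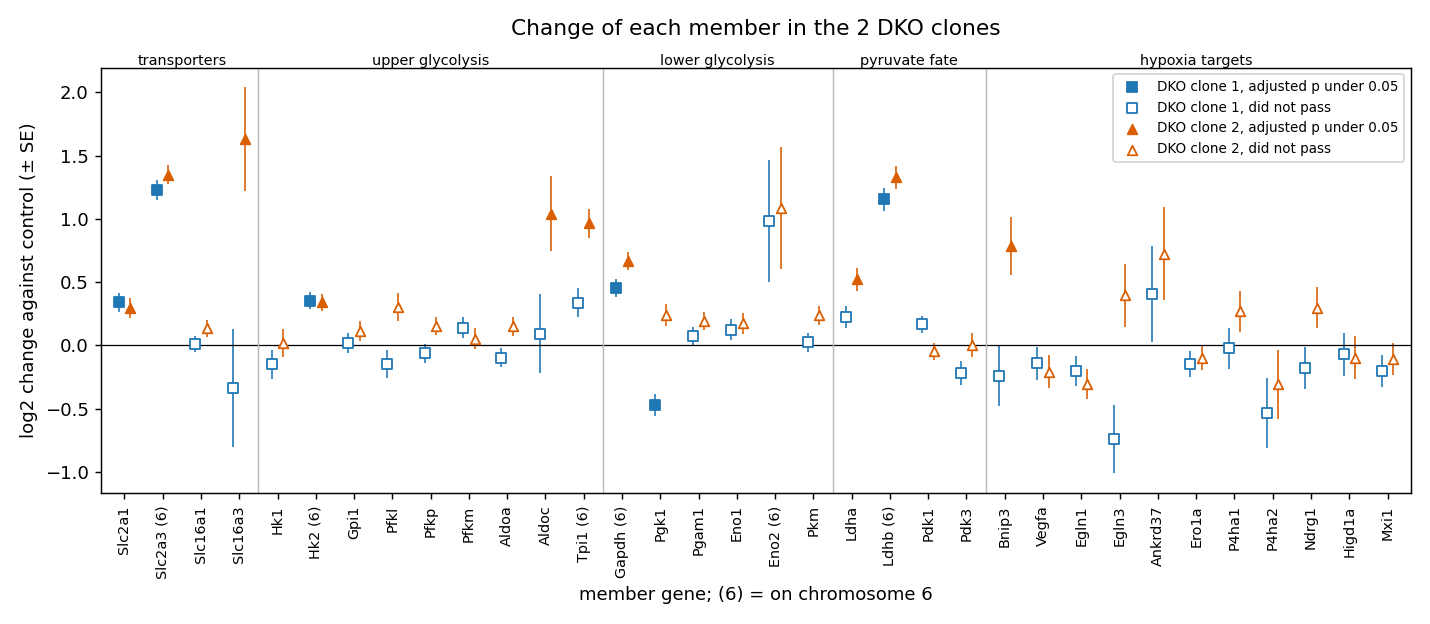
Log2 change against control, with SE, of each member in DKO clone 1 (squares) and clone 2 (triangles), by role. Filled symbols passed at an adjusted p under 0.05. Slc2a1, Slc2a3, Hk2, Gapdh and Ldhb are filled in both clones, Pgk1 is filled below 0 in clone 1, and 5 further members are filled in clone 2 alone.

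The chromosome that holds 4 of the 5 risen members was itself shifted. The median log2 change of its 709 tested genes was 0.48 in DKO, 0.44 in clone 1 and 0.51 in clone 2. The changes of Hk2 (0.35) and Gapdh (0.57) lay near that median, and 492 and 256 genes of the chromosome changed more in the upward direction. Slc2a3 and Ldhb lay far above it, with 21 and 25 genes of the chromosome higher. In the 10 Mb bin around Slc2a3, Tpi1, Gapdh and Eno2 (120 to 130 Mb) the median of 102 genes was 0.56, around Hk2 (80 to 90 Mb) 0.53 over 103 genes, and around Ldhb (140 to 150 Mb) 0.44 over 51 genes. When the median change of its chromosome was subtracted from every gene in each clone (centring), Slc2a3 kept a log2 change of 0.81 (SE 0.0710, adjusted p 4.1e-04) and Ldhb 0.76 (SE 0.0933, adjusted p 0.0018). Gapdh then had 0.09 (adjusted p 0.559) and Hk2 -0.13 (0.261), and Slc2a1, on chromosome 4, stayed at 0.32 (0.0303). Tpi1 in clone 2 went from 0.96 to 0.45 (adjusted p 0.0217). After centring, 3 members were called higher in DKO (Slc2a3, Ldhb and Slc2a1, with 2.25% of all tested genes higher) and 0 lower (3.09%). In clone 1 there were 3 higher (4.89%) and 2 lower (5.48%), Pgk1 and Slc16a1. In clone 2 there were 9 higher (5.19%) and 0 lower (6.15%), and between the clones 7 higher (2.32%) and 0 lower (2.8%).

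**Figure D4:**
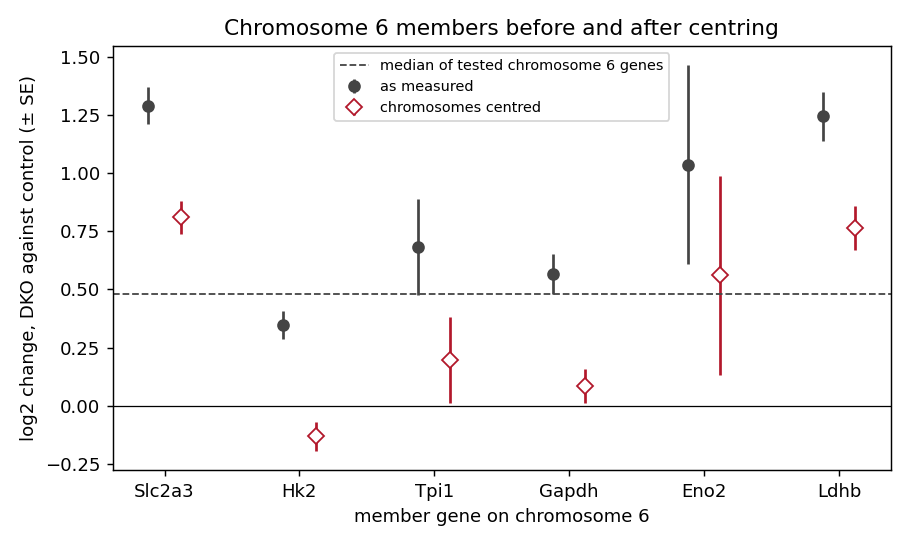
Log2 change in DKO against control, with SE, of the 6 members on chromosome 6, as measured (circles) and after centring (diamonds). The dashed line is the median of the tested genes of the chromosome, 0.48. Slc2a3 and Ldhb stay at 0.81 and 0.76 after centring, while Gapdh and Hk2 move to 0.09 and -0.13.

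Against the control, clone 1 had 5 members higher and 1 lower (8.79% and 6.47% of all tested genes), and clone 2 had 10 higher and 0 lower (7.89% and 7.08%). Both share the control libraries. The 5 higher in clone 1 were the 5 of DKO against control, and clone 2 added Slc16a3, Aldoc, Tpi1, Ldha and Bnip3. On chromosome 6, 4 of 6 members rose in clone 1 (52.6% of its tested genes) and 5 of 6 in clone 2 (57.7%). Elsewhere 1 of 28 rose in clone 1 (6.58% of tested genes) and 5 of 28 in clone 2 (5.38%). Centring ended the calls of Hk2 and Gapdh in both clones (adjusted p 0.419 and 0.951 in clone 1, 0.108 and 0.181 in clone 2). The Slc2a1 call ended in clone 1 without clone 1 replicate 1 (0.0635) or control replicate 1 (0.0797), and in clone 2 without clone 2 replicate 1 (0.172) or control replicate 1 (0.133). Without clone 2 replicate 1, Hk2 in clone 2 was at 0.0504. In clone 2, DESeq2 did not call Slc16a3 (0.125) or Bnip3 (0.184), and limma-voom did not call Aldoc (0.0554). The median log2 change of the members was -0.01 in clone 1 and 0.24 in clone 2.

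The direct test of clone 2 against clone 1 called 6 members higher in clone 2 and 0 lower, where 2.53% of all tested genes were higher and 3.77% lower. These were Pgk1 (log2 0.71, SE 0.0875, adjusted p 6.5e-04), Tpi1 (0.63, SE 0.113, adjusted p 0.0062), Slc16a3 (1.97, SE 0.435, adjusted p 0.0181), Bnip3 (1.03, SE 0.232, adjusted p 0.0201), Egln3 (1.14, SE 0.269, adjusted p 0.0249) and Pfkl (0.45, SE 0.111, adjusted p 0.0295). Both clone 2 libraries lay above both clone 1 libraries for 20 of the 34 members (25.5% of all tested genes) and below for 1 (25.7%). On chromosome 6 the higher member was Tpi1 (1 of 6, with 5.64% of its tested genes higher), and 5 of 28 were higher elsewhere (2.37%). The median over the members was 0.19, and over the 11 hypoxia targets 0.23. Slc2a3, Hk2, Slc2a1 and Ldhb did not pass between the clones, with log2 differences of 0.12 (SE 0.0756), -0.01 (SE 0.0655), -0.04 (SE 0.0756) and 0.17 (SE 0.0902), and Gapdh had 0.22 (SE 0.0714, adjusted p 0.0985). Between the clones, DESeq2 did not call Slc16a3 (0.0832) or Bnip3 (0.0939), and limma-voom did not call Slc16a3 (0.0701) or Egln3 (0.0533).

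The libraries of clone 2 differed from each other across the members. Replicate 1 was above replicate 2 for 29 of the 34, with a median log2 ratio of 0.14 at a pseudocount of 0.5 CPM, whereas it was above for 49.7% of all tested genes. In the control and in clone 1, replicate 1 was above for 18 of 34 each, with medians of 0.01 and 0.02. Between the clones, the typical member difference (median log2 0.19) shrank to 0.12 once clone 2 replicate 1 was dropped. It became 0.22 if replicate 2 of that clone was dropped instead. Relative to the control, the clone 2 figure of 0.24 moved to 0.12 and 0.27 in the same order. Dropping either library of clone 1 kept the difference between the clones at 0.19. Fewer of all tested genes were called between the clones whenever a library of either clone was dropped. Numbers of member calls in those fits therefore cannot show an effect particular to the members. What set the clone 2 libraries apart was not tested.

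**Figure D5:**
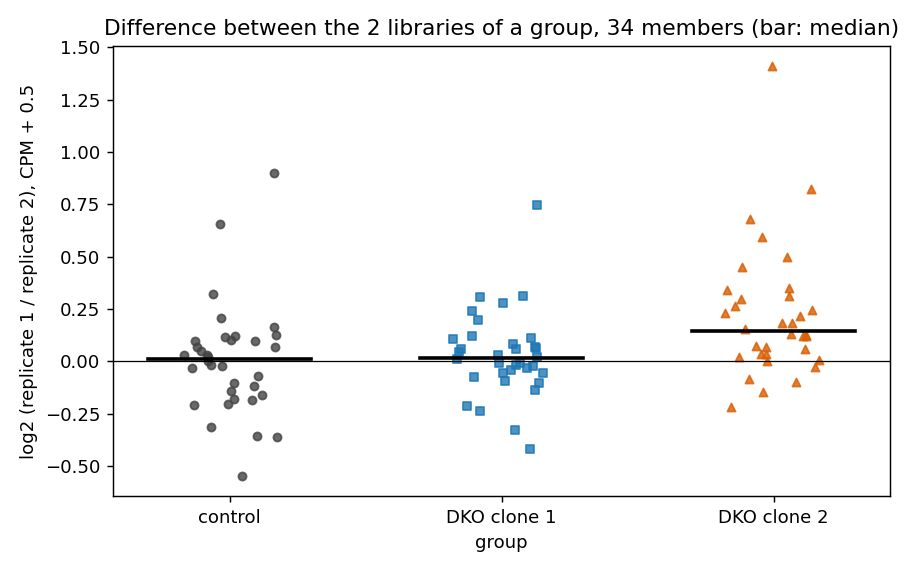
Log2 ratio of replicate 1 to replicate 2 of each of the 34 members within the control, DKO clone 1 and DKO clone 2, at a pseudocount of 0.5 CPM. The bar is the median, 0.01, 0.02 and 0.14. In clone 2, 29 of the 34 points lie above 0.

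Other genes of these pathways came from 6 lists. Of 16 genes that sense oxygen or form HIF, 0 passed in DKO against control, with 4 at an unadjusted p under 0.05. Over all tested genes, 5.06% were called higher and 3.62% lower. On the same list and contrast limma-voom called 0, and DESeq2 called Vhl higher and Epas1 lower. In clone 1, 2 of the 16 were higher (Arnt and Siah2) and 1 lower (Cited2), with 8.79% and 6.47% of all tested genes. In clone 2, 1 was higher (Vhl) and 3 lower (Epas1, Hif1a and Hif1an), with 7.89% and 7.08%. Hif1a, the HIF1 alpha subunit, had means of 345, 331 and 297 CPM in the control, clone 1 and clone 2, and Epas1, the HIF2 alpha subunit, 105, 90.2 and 76.5 CPM. Both were lower in clone 2 against control, Hif1a at a log2 change of -0.21 (adjusted p 0.0399) and Epas1 at -0.46 (0.0014). Hif1a did not pass with chromosomes centred (-0.18, adjusted p 0.0817) or with library size scaling (-0.20, 0.0509). Without chromosomes 3, 6 and Y it did not pass either (-0.20, 0.0699), while Epas1 passed in each of these settings. The Hif1a call ended when any control or clone 2 library was left out (adjusted p 0.117 to 0.216). Their partner Arnt was at 75.1, 99.0 and 76.1 CPM, and Vhl, which marks HIF alpha for degradation and lies on chromosome 6, at 19.5, 23.1 and 30.6 CPM. Arnt was higher in clone 1 (log2 0.40, adjusted p 0.0113), but at 0.11 after its chromosome was centred (0.488). Vhl was higher in clone 2 (log2 0.65, adjusted p 7.6e-04), but at 0.13 after its chromosome was centred.

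Among 32 tested of 35 further hypoxia targets, 3 rose and 0 fell in DKO against control (5.06% and 3.62% of all tested genes). Outside chromosome 6, 1 of 29 rose, near the 2.84% of all genes there. Ak4, a mitochondrial adenylate kinase on chromosome 4, went from 87.5 and 80.1 CPM in the control to 238 and 214 in clone 1 and 131 and 134 in clone 2 (log2 1.10, SE 0.229, adjusted p 0.0148), and was higher in clone 1 than in clone 2. Kdm3a, a histone demethylase, and Hilpda, a lipid droplet protein, both on chromosome 6, rose by 0.53 and 0.83, and by 0.05 and 0.36 after centring, where neither passed. The same list had 5 genes higher and 3 lower in clone 1, and 4 higher and 2 lower in clone 2. Over all tested genes, the shares were 8.79% and 6.47% in clone 1 and 7.89% and 7.08% in clone 2. Of 19 tested of 33 other isoforms and regulators of glycolysis, 1 rose: Tigar on chromosome 6 (0.44, and -0.04 after centring), a phosphatase that opposes phosphofructokinase.

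Around the entry of pyruvate into mitochondria, 1 of 15 genes rose and 2 fell, in a contrast where 5.06% of all tested genes rose and 3.62% fell. Pdk4, a further PDH kinase on chromosome 6, was at 4.89 and 4.34 CPM in the control and 1.61 to 2.33 in the DKO libraries. It fell by 1.20 on the log2 scale (SE 0.204, adjusted p 0.0053), against the upward shift of its chromosome, and its centred change was -1.68. Pdp2, the phosphatase that reverses PDH kinases, fell from 163 to 125 CPM (log2 -0.38, adjusted p 0.0058), and Pcx, pyruvate carboxylase, rose from 16.5 to 21.3 CPM (0.37, adjusted p 0.0444). In the pentose phosphate pathway, which branches from glucose 6-phosphate, 1 of 12 tested genes rose (Rpia, chromosome 6, log2 0.54, and 0.06 after centring) and 2 fell (the transketolase-like Tktl2, -1.31, and Prps2, which makes ribose pyrophosphate, -0.74). In the TCA cycle 2 of 20 rose, Suclg1 and Suclg2, both on chromosome 6 (0.36 and 0.33, and -0.12 and -0.15 after centring).

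Each of these 12 further genes called in DKO lost its call without control replicate 1 (adjusted p 0.0518 to 0.331), and all but Kdm3a and Tigar without control replicate 2 (0.0555 to 0.252). Suclg2 and Pcx also lost theirs without single DKO libraries. Among the members, the calls of Slc2a3 and Ldhb in DKO held when any library was left out, with adjusted p of at most 0.0045 and 0.0308, and both were at 0.215 when the libraries of a clone were added up (1 residual degree of freedom). The handling of reads that match several places is not given in the sources used here, and Gapdh, Pgk1, Ldha, Tpi1, Eno1, Pgam1, Aldoa and Pkm have processed copies elsewhere in the mouse genome, so their counts are uncertain to that extent.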

How the data were processed

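RNA was sequenced from 6 libraries of mouse embryonic stem cells, 2 for the control and 2 for each of 2 DKO clones. Reads were aligned with STAR 2.5.0a to mm10 (GRCm38), per the submitters' processing notes. The authors deposited unnormalised read counts for each Entrez ID beside a width in bases. No source used here gives the counting tool, annotation, counted strand or treatment of reads with several matches. Symbols and positions came from RefSeq on GRCm38.p6, which matched 24437 of 24467 IDs. The 30 others took 0.389 to 1.62% of reads and stayed in library sizes and the tests, with no gene name.

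Counts were filtered (filterByExpr), scaled by TMM (factors 0.992 to 1.01) and tested with edgeR 4.0.16 in R 4.3.3, with a Benjamini-Hochberg threshold of 0.05. DKO against control used 4 against 2 libraries (4 residual degrees of freedom). Clone contrasts used a fit with 3 groups (3 residual degrees of freedom). RPKM is CPM divided by the deposited width in kilobases. The self-test used simulated data. The counts of libraries within a group differed by more than sampling noise (chi-square per gene 11.8 to 44.4), so they were not treated as parts of 1 library. Each was entered once in the fit, which does not make the libraries of a clone independent replicates of a genotype. Alternatives were other scalings and filters, DESeq2 1.42.0, limma-voom (limma 3.58.1), a replicate block, counts summed per clone, chromosomes centred or left out, and each library left out.

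All 34 members are given, with values per library for those called in any of the 4 contrasts. Of the other lists, up to 3 genes with the smallest adjusted p among those called in DKO are named, and Hif1a, Epas1, Arnt and Vhl always. The members and lists were chosen with earlier results of these data known.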

Additional observations from a re-analysis of the deposited data

Results flagged for a closer look

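Between the DKO clones, 6 members and 14 genes of the other lists (8 higher and 6 lower in clone 2) differed by the test of clone 2 against clone 1. Over all tested genes, 2.53% were higher and 3.77% lower. There were 34 members, and the other lists held 16, 32, 19, 15, 12 and 20 tested genes. The values of the 6 members and of 5 of the others, those named in the report, follow. This test is also the test of whether their changes against the shared control differ. Clone 2 was higher, in log2, for Pgk1 (0.71), Tpi1 (0.63), Slc16a3 (1.97), Bnip3 (1.03), Egln3 (1.14) and Pfkl (0.45), and of these Pgk1 kept its call when any 1 library was left out. Vhl (0.40) and Tktl2 (0.83) were higher in clone 2 as well. Ak4 (-0.77), Prps2 (-0.55) and the HIF partner Arnt (-0.38) were lower in clone 2. The median change of chromosome 3, on which Arnt lies, was 0.28 in clone 1 and 0.082 in clone 2, and after centring of the chromosomes the difference of Arnt was -0.18 (adjusted p 0.333) and that of Vhl 0.33 (0.0795).

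In 3 members, 1 of the 4 DKO libraries stood apart from the other 3 by Dixon's criterion, which chance meets in about 1 of 20 groups. Pfkm was highest in clone 1 replicate 1 (69.4 CPM), Eno1 highest in clone 2 replicate 1 (1003 CPM), and Egln1 lowest in clone 2 replicate 2 (15.0 CPM). For the 52 genes examined, 3 such libraries were found.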

How the results depend on the processing

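Of 27 member calls over the 4 contrasts, 8 held under every alternative that could test them: Slc2a3, Ldhb and Pgk1 in clone 1, Slc2a3, Ldhb, Ldha and Tpi1 in clone 2, and Pgk1 between the clones. Counts summed per clone leave 1 residual degree of freedom, and only Cbx5 and Cbx1 then passed in DKO against control (0 genes higher, 2 lower, 0 members). With chromosomes centred, members higher numbered 3 in DKO and 3 in clone 1, members lower in clone 1 numbered 2 (Pgk1 and Slc16a1), and all genes higher numbered 333 in DKO, 722 in clone 1 and 767 in clone 2. The genes that changed sign included Hk2 (-0.13 in DKO, -0.091 in clone 1, -0.17 in clone 2), Tigar (-0.040, -0.021, -0.060), Suclg1 (-0.12, -0.10, -0.14), Suclg2 (-0.15, -0.081, -0.22), Vhl in DKO (-0.024), Kdm3a in clone 2 (-0.047), and in clone 1 Tpi1 (-0.11), Rpia (-0.048) and Slc16a1 (-0.28). Changes that had not passed also crossed 0, among them Slc16a1 in DKO (-0.10), Ero1a in clone 2 (0.042), P4ha1 in clone 1 (0.0023) and Arnt in clone 2 (-0.062). Slc16a1 in clone 1 ranged from -0.036 (without control replicate 2) to 0.061 (without control replicate 1) with libraries left out. Without chromosomes 3, 6 and Y, 27 members were left to test, since the 6 on chromosome 6 and Slc16a1 on chromosome 3 dropped out. Of these 27, 1 rose in DKO, 1 in clone 1 and 5 in clone 2, and genes higher numbered 282, 666 and 649. That setting left out chromosome 6, where 348 of the 748 genes called higher in DKO lay, and what lowered the counts was not tested. With no filter on low counts, members lower in clone 1 numbered 2 (Egln3 added), members higher between the clones 12, and all genes higher between the clones 644, and the cause was not tested.

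With each library left out in turn, members higher ranged from 2 to 7 in DKO (2 without control replicate 1 and 3 without control replicate 2), from 4 to 6 in clone 1, from 5 to 11 in clone 2 and from 1 to 8 between the clones, and members lower in clone 1 from 1 to 2. All genes higher and lower ranged from 154 to 711 and 89 to 474 in DKO, 795 to 1195 and 489 to 868 in clone 1, 649 to 1204 and 460 to 1094 in clone 2, and 104 to 377 and 149 to 542 between the clones. A lone remaining library is then assumed to vary like the other groups. Replicate numbers did not pair the libraries (correlations of deviations 0.028, -0.083 and 0.026). With the replicate block, members higher were 5, 6, 11 and 7 in the 4 contrasts in the order DKO, clone 1, clone 2 and between the clones, against 5, 5, 10 and 6 without it. The blocked count of all genes in DKO was 555 higher and 373 lower, against 748 and 535.

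With 2 libraries a group, precision is limited for members under about 10 CPM, such as Eno2, Slc16a3, Aldoc and Egln3, whose SEs were 0.25 or more in every contrast. RLE and library-size scaling kept all 27 member calls.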
